A study of Homo sapiens with 15 samples.

Results

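In Reh cells, 21 of 10960 expressed protein-coding genes met set limits, and 6 more met them but were left out by name. Mean levels had to be lower by set amounts with wild-type ETV6 than with both its R399C form and the control protein tagBFP. Under ERG repression they had to be, by a set limit, not lower than with a control guide. Reh is a human leukaemia line of B-lymphoblasts in which ETV6 is fused to RUNX1 on one copy and the normal copy is gone. Its messenger RNA was sequenced in 15 libraries, 3 for each of 5 groups. In 9 libraries, transduced populations carried a doxycycline-inducible, V5-tagged transgene for wild-type ETV6 (ETV6_WT), for ETV6 with the R399C substitution (ETV6_R399C) or for the fluorescent protein tagBFP (tagBFP). Doxycycline was given to all 9 at 500 ng/ml for 48 h. The remaining 6 libraries came from populations with inducible dCas9-KRAB, an inactive Cas9 joined to a repressor domain, that carried a guide against the ERG promoter (sgERG) or a non-targeting guide (sgCtrl), had been sorted for the fluorescent reporter and were induced at 500 ng/ml for 72 h. All cells thus share the fusion, the loss of normal ETV6 and doxycycline, and transgene levels are those of an induced vector in 1 cell line.

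ETV6 is a member of the ETS family of transcription factors, which recognise DNA with a GGAA core. It acts mainly as a repressor, joining with itself through its pointed domain and recruiting corepressor complexes with histone deacetylases. It is needed in blood stem cells and platelet formation, and it is often lost or fused in childhood B-lymphoblastic leukaemia. R399C lies in the DNA-binding domain. ERG is another ETS factor, which mostly activates genes, and the study set the effect of ETV6 beside that of ERG repression on the same kind of cell.

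The members were chosen from the measured values. Levels are CPM (counts of reads scaled to the reads of all named genes in a library, times 1e6), averaged over the 3 libraries of a group. A difference is the log2 ratio of group means after 0.5 CPM was added to each, which understates the change of low genes. A member had at least 2 CPM with tagBFP, a difference of -1 or less for ETV6_WT over tagBFP, of -0.58 or less for ETV6_WT over ETV6_R399C, and above -0.4 for sgERG over sgCtrl. Of 10960 protein-coding genes at 2 CPM or more with tagBFP, 64 passed the first 3 thresholds. Of these, 8 were left out by name, of which 6 were past the sgERG threshold too. Another 35 were lower with sgERG, and 21 remained. The 3 differences that chose the members are given below as a description. Where edgeR's calls on the same contrasts are counted, the choice of members shaped the counts, and nothing is read from them.

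**Figure D1:**
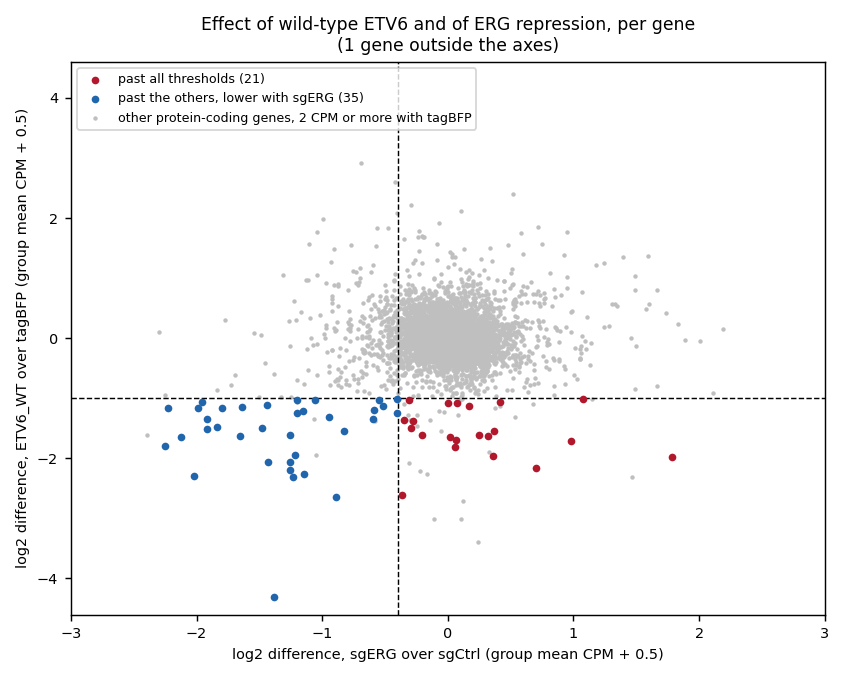
Each point is a protein-coding gene with at least 2 CPM with tagBFP, placed by its log2 difference for sgERG over sgCtrl on the x axis and for ETV6_WT over tagBFP on the y axis, with dashed lines at the thresholds of -0.4 and -1. The 21 members (red) run from -0.36 to 1.79 on the x axis and from -2.62 to -1.01 on the y axis, and the 35 genes that were lower with sgERG (blue) lie to their left; grey points below -1 failed the third threshold or were left out by name.

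The thresholds cut a continuous range. With tagBFP the lowest members were BATF at 2.45 CPM and TTBK1 at 2.73 CPM, and the nearest genes outside were MATN4 at 1.73 CPM and IL34 at 1.47 CPM. For ETV6_WT over tagBFP, APOBR at -1.01 and BATF at -1.02 lay just inside, and KCNQ1 at -0.97 and DXO at -0.96 just outside. For ETV6_WT over ETV6_R399C, BATF at -0.64 and ELOVL6 at -0.69 lay inside, and CD48 at -0.52 and TRIB1 at -0.50 outside. For sgERG over sgCtrl, C6orf222 at -0.36 and MAP1B at -0.35 lay inside, and CSMD1 at -0.404 and TMEM52 at -0.41 outside. BATF sits near 3 of the 4 limits.

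Both perturbations moved their target. ETV6 stood at 480.4 ± 18.8 CPM in ETV6_WT libraries and 378 ± 13.4 CPM in ETV6_R399C libraries, against 5.85 ± 0.379 CPM in tagBFP libraries (SD, n = 3 each). The sgERG mean of ERG was 20.3% of the sgCtrl mean, a log2 fold change of -2.32 ± 0.04 SE (adjusted p = 9.2e-10, edgeR quasi-likelihood test). ERG transcripts were therefore reduced and not removed. Library totals ran from 22040338 to 52481351 estimated reads, and no pair of replicates agreed within sampling noise. The B-lineage markers summed to 6188 to 9682 CPM in all libraries. The T-lineage and endothelial lists stayed at or below 1.45 CPM in sum, but the other marker lists were higher. Stromal sums ran from 38.6 CPM with tagBFP to 98.9 CPM with sgERG, and myeloid sums from 57.3 CPM with tagBFP to 154 CPM with sgERG. Erythroid sums reached 31.3 CPM with sgCtrl, and megakaryocyte sums 10.5 CPM with sgERG. The source of these reads was not tested.

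The label of the set can be checked only where the CRISPR interference libraries express the gene. With sgCtrl, 14 members had at least 2 CPM and 7 did not, namely SOHLH2, KRT9, SLC32A1, C17orf51, EDDM13, LY75-CD302 and APOBR. LY75-CD302 had no read in any sgERG or sgCtrl library, which allows up to 0.0312 CPM over the sgERG group and 0.0231 CPM over the sgCtrl group (3 reads, counting error only). For such genes a difference above -0.4 says little about ERG. The threshold on sgERG over sgCtrl took out genes that were lower with sgERG, so the balance of the counts that follow was set by the choice of members. Of the 19 members that could be tested, edgeR called 4 higher with sgERG (KRT9, ALOX5AP, TTC16 and APOBR), beside 6.89% of all genes. It called C6orf222 and MAP1B lower, beside 7.74% of all genes, although their differences of -0.36 and -0.35 are within the limit. Of the same 19, every sgERG library lay above every sgCtrl library in 8 (20.3% of all genes), every one lay below in 3 (14.7%), and the groups overlapped in 8. They also overlapped in C17orf51 and LY75-CD302, which were not tested.

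The members lie on 15 chromosomes, 12 on the forward and 9 on the reverse strand. RefSeq's promoter table (GRCh38.p14, 250 bases before to 50 after a start) held 15 of the 21, and in 10 of these the window covered the start of the most-read coding transcript. The windows of SIRPA, LGR5, C17orf51, MRVI1, TTC16 and APOBR were not used here. Windows of 5 members are shown because each covers the start of the gene's most-read coding transcript, and because they span the matches to the ETS core among the 10 that do, from none to 5. The window of ALOX5AP, which does not cover that start, had 6. They lie at chr6:36336839-36337138 for C6orf222, chr4:110198566-110198865 for ELOVL6, chr2:127681737-127682036 for LIMS2 and chr17:41572010-41572309 for KRT9, all on the reverse strand, and at chr14:75522219-75522518 for BATF on the forward strand. Each runs 5′ to 3′ along the gene, with GGAA and its reverse complement TTCC in capitals.
C6orf222: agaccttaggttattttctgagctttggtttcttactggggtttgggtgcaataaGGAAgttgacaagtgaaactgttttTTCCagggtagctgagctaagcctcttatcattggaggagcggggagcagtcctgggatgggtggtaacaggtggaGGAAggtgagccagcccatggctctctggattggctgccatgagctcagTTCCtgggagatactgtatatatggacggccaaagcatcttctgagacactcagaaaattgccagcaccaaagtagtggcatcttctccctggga
ELOVL6: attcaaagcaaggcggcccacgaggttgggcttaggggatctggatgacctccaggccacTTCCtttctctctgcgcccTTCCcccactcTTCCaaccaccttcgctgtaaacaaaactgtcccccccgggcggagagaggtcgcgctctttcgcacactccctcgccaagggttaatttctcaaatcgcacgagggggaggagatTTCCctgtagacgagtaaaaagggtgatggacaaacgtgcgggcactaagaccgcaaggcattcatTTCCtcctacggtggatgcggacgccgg
BATF: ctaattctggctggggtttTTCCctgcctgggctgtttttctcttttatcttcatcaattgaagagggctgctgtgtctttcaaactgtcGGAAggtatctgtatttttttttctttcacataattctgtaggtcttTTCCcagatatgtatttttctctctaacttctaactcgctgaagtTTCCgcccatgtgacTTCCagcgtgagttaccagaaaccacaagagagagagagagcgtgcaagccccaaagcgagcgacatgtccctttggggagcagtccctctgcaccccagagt
LIMS2: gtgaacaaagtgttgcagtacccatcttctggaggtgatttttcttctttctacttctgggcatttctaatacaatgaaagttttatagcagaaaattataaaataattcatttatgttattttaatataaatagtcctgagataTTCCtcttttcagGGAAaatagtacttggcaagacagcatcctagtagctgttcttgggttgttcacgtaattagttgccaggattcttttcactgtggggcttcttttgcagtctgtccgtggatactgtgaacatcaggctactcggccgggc
KRT9: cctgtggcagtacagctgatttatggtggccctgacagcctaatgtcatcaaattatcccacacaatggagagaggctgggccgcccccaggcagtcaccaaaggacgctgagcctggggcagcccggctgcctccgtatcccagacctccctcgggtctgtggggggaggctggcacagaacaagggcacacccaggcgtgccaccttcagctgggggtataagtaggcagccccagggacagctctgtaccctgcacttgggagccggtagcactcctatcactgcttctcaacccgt
C6orf222 has 2 GGAA and 2 TTCC, ELOVL6 has 5 TTCC and no GGAA, BATF has 1 GGAA and 4 TTCC, LIMS2 has 1 of each, and KRT9 has neither. Motif shares were taken over 14 member windows, with both strands searched, the first listed window of each gene used and a sequence listed under several genes counted once. This left out EDDM13, whose window is listed under another gene as well. The 14 include the windows of RSC1A1, TTBK1, ALOX5AP and LRRC4, which do not cover the start of the most-read coding transcript. GGAA was present in 92.9% of member windows, against 89.7% of windows of the 35 genes that were lower with sgERG (29 windows) and 95.5% of all 27058 windows. AGGAAG, which contains GGAA, was present in 50% of member windows, 24.1% of the sgERG-lowered set and 33.8% of all windows. CGGAAG was present in 7.14%, 13.8% and 19.9% of the same sets. The tandem GGAAGGAA was in none of the member windows, 6.90% of the sgERG-lowered set and 3.59% of all. These are descriptions of letters in a short window, and the 14 windows make each share coarse.

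Members had low to moderate levels. Their group means had a median of 1.92 CPM with ETV6_WT, 4.80 CPM with ETV6_R399C and 5.37 CPM with tagBFP, and of 4.62 CPM with sgERG and 4.42 CPM with sgCtrl. The 35 genes that were lower with sgERG had medians of 3.52, 9.94 and 11.4 CPM in the first 3 groups. Only 6 members reached 10 CPM with tagBFP, and 8 had under 1 CPM with ETV6_WT. Per length of transcript (TPM), the levels with tagBFP ran from 0.406 TPM for TTBK1 to 13.5 TPM for LIMS2. The difference for ETV6_WT over tagBFP had a median of -1.61 over the 21 members and of -1.35 over the 35 sgERG-lowered genes, and the rule set its upper limit in both.

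**Figure D2:**
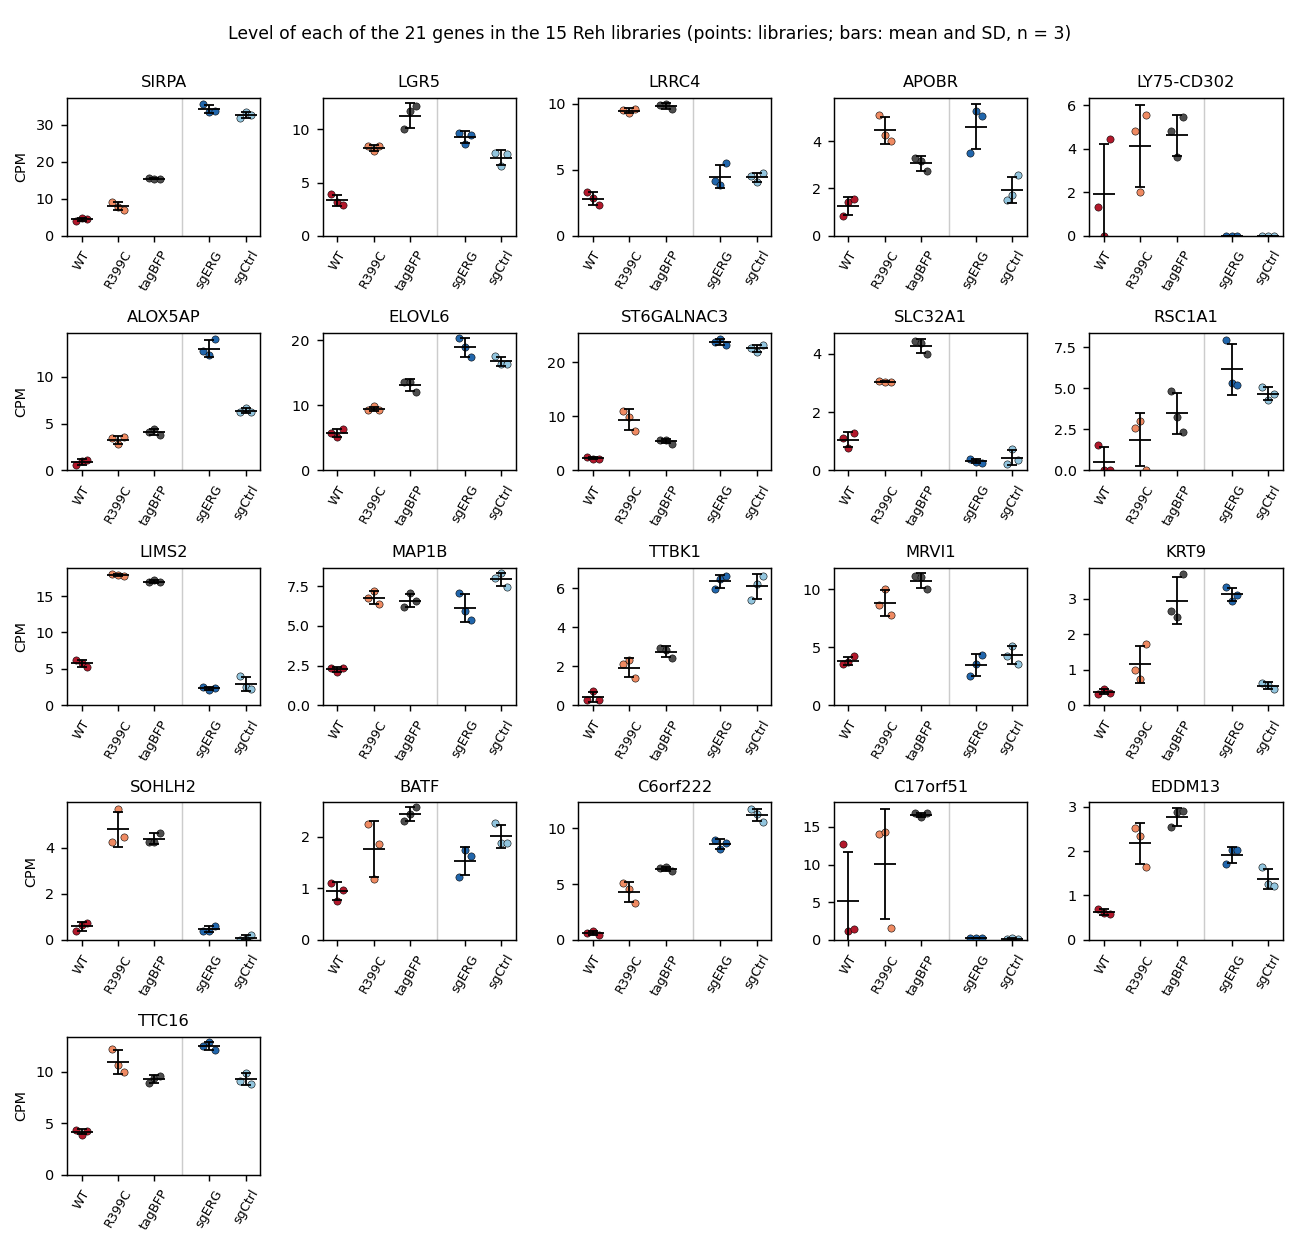
CPM of each member in all 15 libraries, with ETV6_WT, ETV6_R399C and tagBFP left of the grey line and sgERG and sgCtrl right of it; points are libraries, bars the mean and SD of 3, and each panel has its own linear y axis from 0. In 20 of 21 panels all ETV6_WT points lie below all tagBFP points, the exception being LY75-CD302, and C17orf51, RSC1A1 and LY75-CD302 spread widely within the ETV6 groups.

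In 20 members every ETV6_WT library lay below every tagBFP library, beside 26.9% of all genes tested, and edgeR called 18 lower, beside 18.9%. In 18 members every ETV6_WT library lay below every ETV6_R399C library, beside 21.3% of all genes, and edgeR called 18 lower, beside 9.29%. These counts follow from the choice of members. The members not called in either contrast were C17orf51, RSC1A1 and LY75-CD302.

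Surface receptors make up 5 members. SIRPA (chromosome 20, 1894167 to 1940592, forward strand, GRCh38 as for all positions here) encodes the receptor for CD47 on myeloid cells, which restrains phagocytosis. It had 4.08, 4.78 and 4.42 CPM with ETV6_WT, 9.10, 7.80 and 7.07 CPM with ETV6_R399C, and 15.5, 15.3 and 15.3 CPM with tagBFP. It had 35.6, 33.4 and 33.7 CPM with sgERG and 31.9, 33.5 and 32.7 CPM with sgCtrl. The 3 transgene groups did not overlap and formed an order, with ETV6_R399C between the others, whereas sgERG and sgCtrl overlapped. The ETV6_WT mean was 28.8% of the tagBFP mean and the ETV6_R399C mean 52.0% of it.

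LGR5 (chromosome 12, 71439770 to 71586310, forward strand) encodes a receptor for R-spondins that marks stem cells of the intestine. It had 3.90, 3.21 and 2.87 CPM with ETV6_WT, 8.47, 7.94 and 8.41 CPM with ETV6_R399C, and 10.0, 11.7 and 12.2 CPM with tagBFP. With sgERG it had 9.69, 8.67 and 9.50 CPM, against 7.81, 6.57 and 7.68 CPM with sgCtrl. ETV6_R399C was again intermediate, and every sgERG library lay above every sgCtrl library. LRRC4 (chromosome 7, 128027071 to 128032107, reverse strand), a synaptic adhesion protein, averaged 2.81 ± 0.498 CPM with ETV6_WT, 9.47 ± 0.184 CPM with ETV6_R399C and 9.83 ± 0.229 CPM with tagBFP (SD, n = 3 each). It lies opposite SND1, which had 303 CPM with ETV6_WT and 325 CPM with tagBFP. The strand setting of the counting is not given in the sources used here, so reads of LRRC4 and of this much more abundant partner cannot be told apart with certainty.

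APOBR (chromosome 16, 28494649 to 28498970, forward strand) encodes a macrophage receptor for lipoproteins that carry apolipoprotein B. It had 0.831, 1.41 and 1.55 CPM with ETV6_WT, 5.11, 4.25 and 4.03 CPM with ETV6_R399C, and 3.31, 3.16 and 2.72 CPM with tagBFP. The 3 groups did not overlap, and here ETV6_R399C was the highest. With sgERG it had 3.52, 5.30 and 5.05 CPM, against 1.52, 1.74 and 2.55 CPM with sgCtrl, again without overlap. APOBR overlaps CLN3 on the opposite strand. LY75-CD302 is an annotated readthrough of the endocytic receptor gene LY75 and its neighbour CD302, and it shares their reads. Its libraries gave 1.31, 0 and 4.46 CPM with ETV6_WT, 4.81, 1.99 and 5.55 CPM with ETV6_R399C, and 4.81, 3.60 and 5.45 CPM with tagBFP, so the groups overlapped. LY75 itself averaged 53.8 ± 3.87 CPM with ETV6_WT and 45.1 ± 2.27 CPM with tagBFP, so the more abundant gene did not fall, and the membership of LY75-CD302 is uncertain.

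Genes of lipids, glycans and transport make up another 5. ALOX5AP (chromosome 13, 30713478 to 30764426, forward strand) encodes the protein that presents arachidonic acid to 5-lipoxygenase for leukotriene synthesis. It had 0.557, 0.993 and 1.15 CPM with ETV6_WT, 3.47, 2.79 and 3.60 CPM with ETV6_R399C, and 4.12, 4.42 and 3.75 CPM with tagBFP. It had 12.7, 12.3 and 14.0 CPM with sgERG, against 6.24, 6.65 and 6.21 CPM with sgCtrl, 2.04 times as high. Among the members with at least 2 CPM with sgCtrl, ALOX5AP and TTC16 were the 2 with a difference above 0.4 for sgERG over sgCtrl, at 0.98 and 0.41.

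ELOVL6 (chromosome 4, 110045846 to 110199199, reverse strand) encodes the enzyme that elongates saturated fatty acids from palmitate. It had 5.68, 5.14 and 6.32 CPM with ETV6_WT, 9.29, 9.85 and 9.32 CPM with ETV6_R399C, and 13.6, 13.6 and 12.1 CPM with tagBFP, again with ETV6_R399C in between. It had 20.3, 19.0 and 17.4 CPM with sgERG and 17.6, 16.3 and 16.4 CPM with sgCtrl, which overlapped. ST6GALNAC3 (chromosome 1, 76074719 to 76634601, forward strand) encodes a sialyltransferase that acts on glycolipids and glycoproteins. It had 2.55, 2.10 and 2.16 CPM with ETV6_WT, 11.0, 9.95 and 7.19 CPM with ETV6_R399C, and 5.55, 5.60 and 4.96 CPM with tagBFP. ETV6_R399C libraries were thus above those of tagBFP, at 1.74 times their mean. The CRISPR interference libraries overlapped, at 23.7 ± 0.617 CPM with sgERG and 22.6 ± 0.626 CPM with sgCtrl (SD, n = 3 each).

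SLC32A1 (chromosome 20, 38724462 to 38729372, forward strand) encodes the transporter that loads GABA and glycine into synaptic vesicles. It had 1.11, 0.764 and 1.28 CPM with ETV6_WT, 3.07, 3.04 and 3.03 CPM with ETV6_R399C, and 4.44, 4.35 and 4.0 CPM with tagBFP, without overlap. It was low in both CRISPR interference groups, at 0.310 ± 0.0692 CPM with sgERG and 0.434 ± 0.261 CPM with sgCtrl (SD, n = 3 each). RSC1A1, a single-exon gene for a regulator of solute carriers, lies within DDI2 on the same strand, and the counting must share reads between them. It had 1.54, 0 and 0 CPM with ETV6_WT, 2.60, 3.02 and 0 CPM with ETV6_R399C, and 4.82, 3.22 and 2.35 CPM with tagBFP, while DDI2 averaged 113 ± 4.75 CPM with ETV6_WT and 120.1 ± 1.03 CPM with tagBFP (SD, n = 3 each). The level of RSC1A1 is small beside that of DDI2, and its membership is uncertain.

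Genes of the cytoskeleton, adhesion and calcium signalling are 5. LIMS2 (chromosome 2, 127638381 to 127681786, reverse strand) encodes PINCH2, an adaptor that links integrin-linked kinase to focal adhesions. It had 6.17, 5.77 and 5.26 CPM with ETV6_WT, 18.1, 17.9 and 17.7 CPM with ETV6_R399C, and 16.9, 17.2 and 16.9 CPM with tagBFP. ETV6_R399C thus stood slightly above tagBFP, without overlap, and far above ETV6_WT. With sgERG it had 2.46, 2.11 and 2.32 CPM, against 4.04, 2.48 and 2.25 CPM with sgCtrl, which overlapped. Its transcripts differed between the experiments, since a non-coding transcript within the gene held 27.1% of its reads with ETV6_WT, 29.7% with ETV6_R399C and 27.5% with tagBFP, but 3.70% with sgERG and 2.81% with sgCtrl.

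KRT9 (chromosome 17, 41565841 to 41572058, reverse strand) encodes the keratin of the thick skin of palms and soles. It had 0.325, 0.458 and 0.353 CPM with ETV6_WT, 0.985, 0.735 and 1.73 CPM with ETV6_R399C, and 2.66, 2.48 and 3.71 CPM with tagBFP. With sgERG it had 3.33, 2.95 and 3.10 CPM, against 0.636, 0.565 and 0.449 CPM with sgCtrl, 5.68 times as high. Both comparisons were without overlap, at low levels throughout. MRVI1 (chromosome 11, 10573091 to 10693988, reverse strand) encodes a substrate of cGMP-dependent kinase that restrains calcium release through the inositol trisphosphate receptor. It had 3.59, 3.70 and 4.21 CPM with ETV6_WT, 8.67, 10.0 and 7.82 CPM with ETV6_R399C, and 11.2, 11.1 and 10.0 CPM with tagBFP. Per length its means were 2.12 TPM with ETV6_WT, 3.04 TPM with ETV6_R399C and 2.76 TPM with tagBFP, so the difference for ETV6_WT over tagBFP was -1.38 in CPM but -0.32 in TPM, where reads of short transcripts weigh more.

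MAP1B, a microtubule-binding protein of neurons, averaged 2.26 ± 0.145 CPM with ETV6_WT, 6.79 ± 0.398 CPM with ETV6_R399C and 6.61 ± 0.433 CPM with tagBFP (SD, n = 3 each). The ETV6_R399C and tagBFP libraries of MAP1B overlapped. It had 7.11, 5.93 and 5.39 CPM with sgERG, against 8.04, 8.32 and 7.48 CPM with sgCtrl, without overlap. TTBK1, a kinase of tau and tubulin, averaged 0.423 ± 0.262 CPM with ETV6_WT, 1.93 ± 0.480 CPM with ETV6_R399C and 2.73 ± 0.281 CPM with tagBFP (SD, n = 3 each). Its sgERG and sgCtrl libraries overlapped, at means of 6.34 and 6.09 CPM.

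The set has 2 transcription factor genes. SOHLH2 (chromosome 13, 36168208 to 36214615, reverse strand) encodes a basic helix-loop-helix factor of germ cell development. It had 0.371, 0.649 and 0.751 CPM with ETV6_WT, 4.26, 5.69 and 4.46 CPM with ETV6_R399C, and 4.25, 4.27 and 4.66 CPM with tagBFP. ETV6_R399C and tagBFP overlapped, and ETV6_WT lay at 13.4% of the tagBFP mean. Its reads may include those of the annotated readthrough CCDC169-SOHLH2, which was not analysed here. It was near 0 in the CRISPR interference libraries, at 0.463 ± 0.124 CPM with sgERG and 0.0928 ± 0.117 CPM with sgCtrl (SD, n = 3 each). BATF, an AP-1 family factor of lymphocyte activation, averaged 0.95 ± 0.176 CPM with ETV6_WT, 1.76 ± 0.542 CPM with ETV6_R399C and 2.45 ± 0.134 CPM with tagBFP (SD, n = 3 each). It had 1.23, 1.75 and 1.62 CPM with sgERG, against 2.27, 1.88 and 1.88 CPM with sgCtrl, every sgERG library below every sgCtrl library.

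The remaining 4 members have no well-known role. C6orf222 (chromosome 6, 36315757 to 36336885, reverse strand), named BNIP5 in RefSeq, had the widest difference of the set, -2.62 for ETV6_WT over tagBFP. It had 0.649, 0.802 and 0.398 CPM with ETV6_WT, 5.08, 4.56 and 3.34 CPM with ETV6_R399C, and 6.40, 6.5 and 6.16 CPM with tagBFP. It had 8.97, 8.10 and 8.72 CPM with sgERG, against 11.7, 11.3 and 10.6 CPM with sgCtrl. ETV6_WT brought it to 9.70% of the tagBFP mean, ETV6_R399C to 68.1% of it, and with sgERG it was 0.768 times its sgCtrl mean.

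C17orf51 had 12.7, 1.20 and 1.46 CPM with ETV6_WT, 14.1, 14.4 and 1.62 CPM with ETV6_R399C, and 16.8, 16.3 and 16.8 CPM with tagBFP. It took 1 of 2 levels in each ETV6 library, near that of tagBFP or at 1.20 to 1.62 CPM. This came from its most-read transcript, which averaged 3.81 ± 6.61 CPM with ETV6_WT and 14.8 ± 0.717 CPM with tagBFP (SD, n = 3 each). A group mean does not describe such values, and without ETV6_WT replicate 2, ETV6_WT replicate 3 or ETV6_R399C replicate 2 C17orf51 left the set. EDDM13 averaged 0.627 ± 0.0622 CPM with ETV6_WT, 2.17 ± 0.464 CPM with ETV6_R399C and 2.77 ± 0.208 CPM with tagBFP (SD, n = 3 each). TTC16 averaged 4.18 ± 0.260 CPM with ETV6_WT, 10.9 ± 1.14 CPM with ETV6_R399C and 9.28 ± 0.356 CPM with tagBFP (SD, n = 3 each). The reads of EDDM13 and TTC16 came mostly from a transcript annotated as a retained intron, which held 90.8% of the reads of EDDM13 and 83.4% of those of TTC16 in tagBFP libraries. With sgERG TTC16 had 12.5, 12.9 and 12.1 CPM, against 9.11, 9.89 and 8.77 CPM with sgCtrl, without overlap.

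The rule set no limit on ETV6_R399C over tagBFP, and the members went both ways there. The values of both groups entered the rule through ETV6_WT, so the tests that follow are not independent of the choice of members. The limit was stricter against tagBFP (-1) than against ETV6_R399C (-0.58), which favours members lower with ETV6_R399C than with tagBFP. By edgeR, 7 members were lower with ETV6_R399C, beside 22.1% of all 14242 genes tested, and 2 were higher, beside 18.8%. Either way 9 were called, beside 40.9% of all genes, and 12 were not. The median log2 fold change was -0.37 over the 21 members and 0.00 over all genes. The 35 sgERG-lowered genes, chosen by the same limits on ETV6_WT, had 16 lower and 3 higher and a median of -0.23. Without overlap, 12 members lay below (24.2% of all genes) and 4 above (26.4%), and 5 overlapped.

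Among the members lower with ETV6_R399C, KRT9 had a log2 fold change over tagBFP of -1.36 ± 0.30 SE (adjusted p = 0.00312) and SIRPA of -0.96 ± 0.09 SE (adjusted p = 8.6e-06), both by edgeR. SIRPA and KRT9 passed in all 9 fits that left out 1 library and in the 6 other alternatives tried. C6orf222 (-0.58, adjusted p = 0.0213), SLC32A1 (-0.51, adjusted p = 0.0245), ELOVL6 (-0.49, adjusted p = 6.4e-04), LGR5 (-0.47, adjusted p = 0.00481) and MRVI1 (-0.32, adjusted p = 0.0239) followed in the same edgeR fit. LGR5 and ELOVL6 passed in all 9 fits without 1 library, C6orf222 in 6, MRVI1 in 5 and SLC32A1 in 4. The count lower was 4 without ETV6_R399C replicate 3, without tagBFP replicate 1 or without tagBFP replicate 2. When edgeR allowed for transcript length, it was 2, KRT9 and SIRPA, and MRVI1 came to 0.05 (adjusted p = 0.904).

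ST6GALNAC3 was higher with ETV6_R399C than with tagBFP, at a log2 fold change of 0.78 ± 0.14 SE (adjusted p = 0.00109, edgeR), while its ETV6_WT mean was 42.3% of the tagBFP mean. With transcript length allowed for it did not pass (adjusted p = 0.0660), and TTC16 did (0.35, adjusted p = 0.0320, edgeR). APOBR was higher by 0.53 ± 0.19 SE (adjusted p = 0.0423, edgeR) but passed in 2 of 9 fits without 1 library, and by DESeq2 its adjusted p was 0.0548. SLC32A1 and MRVI1 also did not pass by DESeq2 (adjusted p = 0.0683 and 0.0746). Values close to 0 were seen for LIMS2 (0.05 ± 0.06 SE), MAP1B (0.01 ± 0.10 SE) and LRRC4 (-0.08 ± 0.10 SE). By role, 2 of 5 receptors and 2 of 5 lipid, glycan and transport genes were called lower with ETV6_R399C. So were 2 of 5 cytoskeleton, adhesion and calcium genes, none of the 2 transcription factors and 1 of the 4 others. The 2 called higher were a receptor gene (APOBR) and a lipid, glycan and transport gene (ST6GALNAC3). Of all genes 22.1% were lower and 18.8% higher, and groups of 2 to 5 genes are too small to read a pattern by role.

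**Figure D3:**
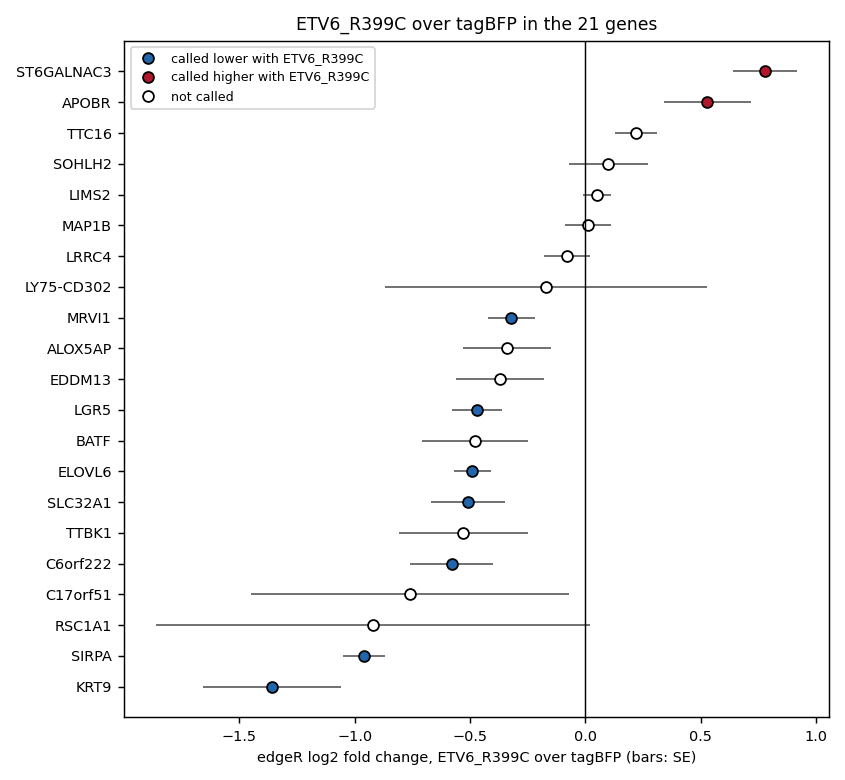
edgeR log2 fold change of each member for ETV6_R399C over tagBFP (x axis), members sorted from highest to lowest; bars are SE, and filled points passed an adjusted p of 0.05. ST6GALNAC3 and APOBR are filled on the right, KRT9 and SIRPA lie farthest left among the filled points, and the widest bars belong to RSC1A1, LY75-CD302 and C17orf51.

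Genes beside the members were picked by position. The nearest tested protein-coding gene on each side gave 42 genes at a median distance of 75228 bp. Of these, edgeR called 14 lower with ETV6_WT than with tagBFP (33.3%, beside 18.9% of all genes) and 4 higher (9.52%, beside 17.6%), 18 in all (42.9%, beside 36.5%), with a median log2 fold change of -0.05. One of the 42, MYO7B, is itself among the 35 genes that passed the first 3 thresholds and were lower with sgERG, and without it 13 of 41 were called lower. Changes were small: 2 of the 18 called genes reached 2-fold. Beside C6orf222, the ETS repressor gene ETV7 was lower by a log2 fold change of -0.56 ± 0.11 SE (adjusted p = 0.00144, edgeR) and BRPF3, a scaffold of histone acetyltransferases, by -0.39 ± 0.04 SE (adjusted p = 7.7e-06, edgeR). DNPH1, a nucleotide hydrolase gene beside TTBK1, came to -0.51 ± 0.05 SE (adjusted p = 1.6e-05, edgeR). SH2D3C, an adaptor gene 6717 bp from TTC16, was higher by 0.58 ± 0.03 SE (adjusted p = 3.4e-08, edgeR). With ETV6_R399C over tagBFP, ETV7 (-0.43), DNPH1 (-0.43) and SH2D3C (0.38) were called the same way, and BRPF3 (0.05) was not called. Between ETV6_WT and ETV6_R399C, edgeR called BRPF3 (-0.44) and SH2D3C (0.20), but not ETV7 (-0.13) or DNPH1 (-0.08). Calls with ETV6_WT over tagBFP are thus not always particular to the wild-type form.

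Next to LIMS2 lies MYO7B, which the rule's thresholds had already marked as low with ETV6_WT and with sgERG, so its values are given as a description without a test. MYO7B, an unconventional myosin gene 652 bp away, had 0.928, 1.03 and 0.663 CPM with ETV6_WT, 3.11, 3.87 and 3.25 CPM with ETV6_R399C, and 3.08, 3.16 and 2.50 CPM with tagBFP. Its log2 fold change for ETV6_WT over tagBFP was -1.71 ± 0.20 SE. It had 0.660, 1.02 and 0.976 CPM with sgERG, against 2.41, 2.15 and 1.98 CPM with sgCtrl, a log2 fold change of -1.31 ± 0.23 SE. GPR17, a receptor gene inside LIMS2 on the opposite strand, was lower too, at 0.0449 ± 0.0442 CPM with ETV6_WT and 0.753 ± 0.183 CPM with tagBFP (SD, n = 3 each; log2 fold change -3.99 ± 0.58 SE, adjusted p = 2.4e-04, edgeR). Its ETV6_WT libraries gave 0.0464, 0 and 0.0883 CPM, and the log2 fold change was -4.86 without ETV6_WT replicate 3 and -3.39 without ETV6_WT replicate 2. With sgERG it averaged 0.174 ± 0.0875 CPM, against 0.560 ± 0.0354 CPM with sgCtrl (log2 fold change -1.67 ± 0.40 SE, adjusted p = 0.0185, edgeR). Whether LIMS2, MYO7B and GPR17 differ in their response to sgERG was not tested. The sgERG call of GPR17 did not hold with transcript length allowed for (adjusted p = 0.0788, edgeR). It was also lost without sgERG replicate 1 or 3 and without sgCtrl replicate 1 or 3 (adjusted p = 0.0522 to 0.0748, edgeR). Reads of LIMS2 and GPR17 may mix, since the strand setting is not given in the sources used here.

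PTPRR, a tyrosine phosphatase gene 518927 bp from LGR5, went the other way. It had 0.417, 0.229 and 0.530 CPM with ETV6_WT, 0.985, 1.27 and 0.997 CPM with ETV6_R399C, and 0.0634, 0.0359 and 0.0833 CPM with tagBFP. It was highest with ETV6_R399C, and the 3 groups did not overlap. The log2 fold change was 2.60 ± 0.51 SE for ETV6_WT over tagBFP (adjusted p = 0.00202, edgeR) and 4.04 ± 0.45 SE for ETV6_R399C over tagBFP (adjusted p = 2.9e-05, edgeR). Levels with tagBFP were at most 0.0833 CPM, so the size of both fold changes is uncertain.

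**Figure D4:**
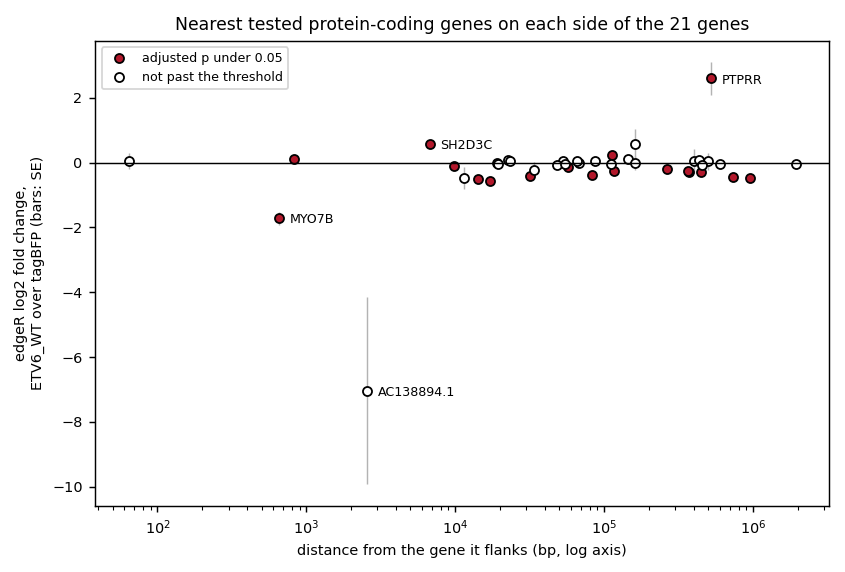
edgeR log2 fold change for ETV6_WT over tagBFP of the 42 neighbouring genes (y axis) against their distance from the member they flank (x axis, log scale); bars are SE and filled points passed an adjusted p of 0.05. Nearly all lie close to 0, MYO7B at -1.71 and PTPRR at 2.60 stand out, and AC138894.1 at -7.04 had no read with ETV6_WT, a wide bar and an adjusted p of 0.0884.

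The members belong to none of 15 lists of related genes and cell type markers, so the lists describe only their surroundings. Among 17 ETV6 corepressors and partners, edgeR called 4 higher and 5 lower with ETV6_WT than with tagBFP (median log2 fold change -0.03), and 3 higher and 2 lower with sgERG than with sgCtrl (median -0.02). Of all genes tested, 17.6% were higher and 18.9% lower with ETV6_WT, and 6.89% were higher and 7.74% lower with sgERG. Counts from 17 genes are coarse beside these shares, and a difference from them was not tested. HDAC2, a histone deacetylase, fell by 0.21 on the log2 scale (adjusted p = 3.9e-04, edgeR) and TBL1XR1, a subunit of the NCoR complex, rose by 0.21 (adjusted p = 0.00111, edgeR) with ETV6_WT. Of 22 tested ETS family genes, ETV6 included, 10 were higher and 4 lower with ETV6_WT (median 0.12), and of 21 tested in the other fit, ERG included, 5 were higher and 5 lower with sgERG (median 0.00). ELK3 (0.81) and SPIB (0.83) had the smallest p after ETV6, with adjusted p of 9.8e-09 and 2.9e-08 by edgeR. With ETV6_R399C over tagBFP, 8 of the 17 partners were higher and 5 lower, and 11 of 22 ETS genes were higher and 1 lower. Of all genes, 18.8% were higher and 22.1% lower there. ELK3 (0.44), SPIB (0.70) and TBL1XR1 (0.35) rose there too.

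The other gene lists went as follows with ETV6_WT over tagBFP, where 17.6% of all genes were higher and 18.9% lower. Of 12 genes known in Ewing sarcoma for enhancers made of GGAA repeats, 3 were higher and 3 lower (median 0.01), coarse counts beside those shares. Of 19 genes with high levels in leukaemia with the ETV6::RUNX1 fusion, as reported elsewhere, 4 were higher and 10 lower (median -0.15). Solute transporters and ion channels had 3 higher and 13 lower of 26 (median -0.13), and MAPK feedback and immediate-early genes 1 higher and 8 lower of 18 (median -0.49). Interferon response genes had 14 higher and 3 lower of 21 (median 0.27), and small GTPases and their regulators 17 higher and 8 lower of 38 (median 0.10). With ETV6_R399C over tagBFP (18.8% of all genes higher, 22.1% lower), interferon genes had 9 higher and 4 lower, and small GTPases 20 and 4. Transporters had 7 higher and 9 lower, MAPK genes 2 and 5, fusion-leukaemia genes 5 and 7, and Ewing genes 2 and 5. Genes left out of the set by name are in 5 lists: ETS family (ETV4, ETV5), high in ETV6::RUNX1 leukaemia (CLIC5, BIRC7), transporters (SLC7A11), MAPK feedback (ETV4, ETV5, SPRED2) and small GTPases (RAP1GAP). These genes had passed the ETV6_WT thresholds, so the counts of those lists are not independent of the rule. KCNN1 had passed them too, at 58.0 CPM with ETV6_WT, 152 CPM with ETV6_R399C and 148 CPM with tagBFP, and was lower with sgERG. It is in the Ewing, fusion-leukaemia and transporter lists, so the Ewing counts are not independent of the rule either. In the transporter list the same holds for SLC51A (3.20, 15.4 and 17.7 CPM).

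Markers of cell types moved with ETV6_WT as well. Of 11 tested B-lineage markers, 10 were higher with ETV6_WT and none lower (median 0.32; 17.6% and 18.9% of all genes), and their summed level was 7821 to 7977 CPM with ETV6_WT, 7469 to 7688 CPM with ETV6_R399C and 6188 to 6312 CPM with tagBFP. MME, which encodes CD10, rose by 0.96 on the log2 scale (adjusted p = 5.6e-10, edgeR). For these 11 B-lineage markers, ETV6_R399C over tagBFP also gave 10 higher and 0 lower (median 0.24, beside 18.8% and 22.1% of all genes). MME rose by 0.79 there. SIRPA is best known from myeloid cells, so the myeloid list is given beside it. It summed to 77.5 to 80.6 CPM with ETV6_WT, 94.1 to 97.5 CPM with ETV6_R399C and 57.3 to 60.9 CPM with tagBFP, while SIRPA was lower with ETV6_WT. Of its 6 tested genes 2 were higher, among them MPO, the neutrophil peroxidase gene (0.54, adjusted p = 5.6e-07, edgeR), and 2 were lower, among them ITGAM, which encodes the integrin chain CD11b (-0.91, adjusted p = 1.1e-04, edgeR). With sgERG the myeloid sum was 137 to 154 CPM, against 112 to 114 CPM with sgCtrl. With transcript length allowed for, MPO and ITGAM did not pass (adjusted p = 0.0529 and 0.299, edgeR). CSF1R, the other myeloid marker called higher (0.82, adjusted p = 1.9e-06, edgeR), did pass under that setting (0.81, adjusted p = 4.5e-04, edgeR). The part of these markers in the members' values was not tested. T-lineage, megakaryocyte and endothelial markers had 1 tested gene each and no call with ETV6_WT over tagBFP. Of 2 tested erythroid markers 2 were lower, and of 2 tested stromal markers 1 was higher.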

How the data were processed

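Salmon tables for 15 Reh libraries were the starting point. The authors' deposited tables give estimated counts and TPM per transcript, per the file headers. The submitters' processing notes name Salmon 0.11.3 and hg38. Its strand setting is not given in the sources used here. Of 167268 transcripts, 90.3% were named with GENCODE 29, and the rest held 6.67% to 7.56% of reads. Estimated counts were summed over 33367 genes, rounded for testing, and scaled to CPM on gene totals. Differential expression used edgeR 4.0.16 (quasi-likelihood test, TMM, its filter on low counts, Benjamini-Hochberg adjustment over all genes tested, threshold 0.05) in R 4.3.3, in 1 fit of 9 libraries (14242 genes) and 1 of 6 (13464 genes). DESeq2 1.42.0 was an alternative. The fit code was tested on simulated data. ETV6_WT, ETV6_R399C and tagBFP contrasts share libraries. No label says that replicates were separate cultures, so p-values measure only the spread between these libraries. All members were named; values per library are given for the widest fall of each role group, members at 10 CPM or more with tagBFP, the widest changes with ETV6_R399C, and others added after their values were seen. The members and lists were chosen with earlier results of these data known.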

Additional observations from a re-analysis of the deposited data

How the results depend on the processing

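The set depended on its thresholds and on the unit. TMM-scaled CPM gave the same 21 members. A pseudocount of 0.1 gave 30, a pseudocount of 1 gave 17, a tagBFP minimum of 1 CPM gave 25, a tagBFP minimum of 5 CPM gave 11, and a minimum of 2 CPM also with sgCtrl gave 14. With TPM the rule gave 15 genes, of which 8 were among the 21. In TPM, 7 of the 21 were under 2 TPM with tagBFP. The threshold for ETV6_WT over tagBFP was passed by 12 of the 21, and all 3 thresholds on differences by 11. All 21 were still lower with ETV6_WT than with tagBFP, with a highest difference of -0.32, but this contrast had chosen them. Leaving out 1 library gave 20 to 28 members.

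Allowing for transcript length lowered the genes called to 3428 for ETV6_R399C over tagBFP, 2911 for ETV6_WT over tagBFP and 1236 for ETV6_WT over ETV6_R399C, against 5826, 5202 and 3044, and the members called with ETV6_R399C to 2 lower and 1 higher; the cause was not tested. Under that setting MRVI1 came to 0.05. DESeq2 also called 1 member higher. Leaving out 1 library gave 4867 to 5733, 4322 to 5294 and 2008 to 3236 genes for the same contrasts, and 1160 to 2302 for sgERG over sgCtrl, against 1969. The lowest were 2008 without ETV6_R399C replicate 1 and 2009 without ETV6_WT replicate 2, and 1160 without sgCtrl replicate 1 and 1162 without sgCtrl replicate 3. Members lower with ETV6_R399C numbered 4 to 7, members higher 1 to 2, and neighbours called 16 to 18. Members not called near 0 changed sign between these fits: SOHLH2 from -0.03 to 0.21, MAP1B from -0.03 to 0.06 and LY75-CD302 from -0.45 to 0.14.

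Replicate numbers did not pair the libraries, with correlations of deviations of -0.07 to 0.07 between same-numbered libraries. With a replicate block, 5656, 5086, 2973 and 1536 genes were called for the 4 contrasts, 7 members were lower and 1 higher with ETV6_R399C, APOBR losing its call at an adjusted p of 0.0703 (edgeR), and 18 neighbours were called. The scan for GGAA repeats near the members was not run. Depth limits precision in the 8 members under 1 CPM with ETV6_WT, and the widest SE for ETV6_R399C over tagBFP were those of RSC1A1 (0.94), LY75-CD302 (0.70) and C17orf51 (0.69).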

Other observations

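Among 14202 non-coding genes, 4 passed the same thresholds on differences and level, a comparison chosen after seeing the data. That total holds non-coding genes of any level, whereas the 10960 protein-coding genes had at least 2 CPM with tagBFP. The pseudogene FBXW4P1 (chromosome 22, 23262767 to 23265005) averaged 2.71 ± 0.139 CPM with ETV6_WT, 8.32 ± 0.717 CPM with ETV6_R399C and 12.3 ± 0.987 CPM with tagBFP, and 13.1 ± 0.969 CPM with sgERG and 11.2 ± 0.358 CPM with sgCtrl (SD, n = 3 each). The pseudogene OR2A9P averaged 1.45 ± 0.230 CPM with ETV6_WT, 3.45 ± 0.868 CPM with ETV6_R399C and 3.81 ± 0.225 CPM with tagBFP, and 4.69 ± 0.355 CPM with sgERG and 1.94 ± 0.532 CPM with sgCtrl (SD, n = 3 each). The antisense RNA TSPEAR-AS2 averaged 0.784 ± 0.407 CPM with ETV6_WT, 2.62 ± 0.350 CPM with ETV6_R399C and 2.51 ± 0.340 CPM with tagBFP, and 3.60 ± 0.0792 CPM with sgERG and 1.70 ± 0.176 CPM with sgCtrl (SD, n = 3 each). AC242376.1 spread widely, at 1.60 ± 2.77 CPM with ETV6_WT and 4.59 ± 1.07 CPM with tagBFP (SD, n = 3 each). Pseudogenes can share reads with their parent genes, so these levels are uncertain.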
